A study of Homo sapiens with 6 samples.

Results

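The AP-1 and immediate early factors studied here are 10 genes, FOS, FOSB, FOSL1, FOSL2, JUN, JUNB, JUND, ATF3, MAFF and EGR1. They were chosen by gene symbol from a table of read counts that holds 60664 genes, and each symbol matched 1 row. The libraries came from PC9OR, a lung cancer cell line related by name to PC9, a human lung adenocarcinoma line with an activating EGFR deletion. Of the 6 libraries, 3 were labelled NC (genotype Control) and 3 si-GLMP (genotype GLMP knockdown), so all groups share the PC9OR background. GLMP encodes a lysosomal membrane glycoprotein, and the series title ties it to resistance against EGFR kinase inhibitors. The sources used here do not give the knockdown reagent, the time after knockdown or any inhibitor in the medium. They do not say whether replicates were separate cultures, so the p-values reflect library-to-library spread that may be technical only.

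AP-1 is a family of transcription factor dimers in which a JUN protein pairs with another JUN, a FOS or an ATF protein through a leucine zipper, a coiled alpha helix. The dimers bind a short palindrome known as the TPA response element (TRE) or the related cyclic AMP response element (CRE). FOS, FOSB, JUN, JUNB, ATF3, MAFF and EGR1 are immediate early genes, whose transcription starts within minutes of growth factor or stress signals without new protein synthesis. In epithelial cancer cells FOSL1 and JUN act downstream of ERK and JNK kinases, and EGFR is a main upstream receptor of this route.

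Of the 10 factors, 3 were higher and 1 was lower in the si-GLMP libraries. JUNB, JUN and FOSL1 rose by 29.0%, 27.4% and 19.0%, and FOSB fell by 41.7%. FOS, EGR1, ATF3, MAFF, JUND and FOSL2 did not pass the test, and their fitted changes lay between -0.33% and 4.64%. Calls are edgeR quasi-likelihood tests with Benjamini-Hochberg adjustment over the 15900 tested genes, at a threshold of 0.05. By that rule 23.3% of all tested genes were called, 12.0% higher and 11.3% lower. The median log2 fold change was 0.06 over the 10 factors and 0.004 over all tested genes, and the median absolute log2 fold change was 0.06 against 0.18. The tested genes were not matched to the factors in level and include low-count genes, whose fold changes are noisier. No overlap between NC and si-GLMP values was seen for 4 of the 10 factors, beside 36.5% of all tested genes.

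The short promoter stretches below show letters of elements known from the promoters of growth factor and stress response genes, in FOSB, which fell, in EGR1, which was not called, and in other factors of either outcome. They were read from RefSeq promoter windows on GRCh38.p14, which held 9 of the 10 factors (not FOSL1). The 250 bases upstream of each transcription start were searched on both strands for TGANTCA (TRE), TGACGTCA (full CRE), TGACGT (short CRE, also part of each full CRE), TGACATCA (the AP-1 variant of the JUN promoter), the CArG box bound by SRF, and TATAAA. In TGANTCA the N was any base, so matches called TRE are wider than the strict element, which has C or G there. Capitals mark the matches. The FOSB stretch lies at chr19:45467836-45467985 and the EGR1 stretch at chr5:138465319-138465468, both on the plus strand and covering bases 160 to 11 upstream of the start.
FOSB: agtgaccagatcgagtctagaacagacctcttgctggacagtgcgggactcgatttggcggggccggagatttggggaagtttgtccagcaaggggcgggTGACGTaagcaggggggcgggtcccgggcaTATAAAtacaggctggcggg
EGR1: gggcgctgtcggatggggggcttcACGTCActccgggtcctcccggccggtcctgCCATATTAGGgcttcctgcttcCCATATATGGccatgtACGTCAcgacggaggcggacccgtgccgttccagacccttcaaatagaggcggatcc

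EGR1 carried 2 CArG boxes, 105 and 83 bases upstream of its start, with a short CRE on the reverse strand on either side of the pair. Of all 35116 windows of that length, 1.16% held a CArG box. FOSB carried a short CRE 60 bases upstream and a TATA box 30 bases upstream. FOS had the same pair, at 64 and 33 bases. Short CREs occurred in 7.10% of windows and TATAAA in 10.7%. The 30 bases around the short CRE of FOS, at chr14:75278752-75278781 on the plus strand, read as follows, beside the matching 30 bases of FOSB at chr19:45467924-45467953 on the plus strand.
FOS: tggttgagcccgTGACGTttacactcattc
FOSB: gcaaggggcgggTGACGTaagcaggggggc

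JUN carried the variant site 67 bases upstream, at chr1:58784096-58784125 on the minus strand, and the same letters stood 123 bases upstream of a start of ATF3, at chr1:212565273-212565302 on the plus strand. These letters occurred in 2.37% of windows. Another ATF3 start had only TATAAA, 230 bases upstream. JUND and MAFF each held a full CRE, which 1.65% of windows had, though another MAFF start had no match. The JUND site lay at chr19:18281804-18281833 on the minus strand, 200 bases upstream, with a further short CRE at 87 bases, and the MAFF site at chr22:38201929-38201958 on the plus strand, 54 bases upstream. In JUNB the only match was a TATA box 31 bases upstream, at chr19:12791443-12791472 on the plus strand. In FOSL2 it was a short CRE 66 bases upstream, at chr2:28392780-28392809 on the plus strand. Distances are from RefSeq starts, which can differ from the gene positions given below, taken from GENCODE. By those positions the JUN, FOSL2 and MAFF sites, the FOS TATA box and the ATF3 TATAAA lie inside the gene. A TGANTCA match was found in 6.57% of windows and in none of the 9 factors.
JUN: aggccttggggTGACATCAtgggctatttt
ATF3: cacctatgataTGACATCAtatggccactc
JUND: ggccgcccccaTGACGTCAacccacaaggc
MAFF: ggccgggtcggTGACGTCAccgcatgactg
JUNB: tgactagcgcggTATAAAggcgtgtggctc
FOSL2: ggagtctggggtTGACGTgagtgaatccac

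The libraries held between 19896875 and 22372878 counts, and a count of 3, taken as the floor of detection, corresponded to 0.134 to 0.151 CPM, the unit of counts scaled to a common library size used below. GLMP averaged 15.9 ± 0.796 CPM over the 3 NC libraries and 3.34 ± 0.590 CPM over the 3 si-GLMP libraries (SD), with each si-GLMP library below each NC library, as labelled. The epithelial markers EPCAM, CDH1, KRT7, KRT8, KRT18 and KRT19 summed to between 8304 and 9385 CPM per library. The lung lineage markers NKX2-1, NAPSA, SFTPB and SFTPC summed to at most 0.775 CPM, so these lineage markers were near absent in both groups. Leukocyte markers summed to at most 0.635 CPM, with LYZ and TYROBP at 0 in each library. Endothelial markers summed to 4.92 to 7.68 CPM in NC and 6.83 to 7.69 CPM in si-GLMP, and fibroblast markers to 5.59 to 7.13 and 10.4 to 12.0 CPM, mostly from COL1A1, which was called higher, with COL3A1 at 0 in each library and DCN and LUM at 1 count each in all. In bulk RNA, fewer cells with a transcript and less of it per cell cannot be told apart. The share of counts from mitochondrially encoded mRNAs was 6.55%, 8.73% and 6.49% in NC and 5.18%, 5.49% and 5.31% in si-GLMP. Each NC library thus lay above each si-GLMP library, and NC replicate 2 was the highest. The part of the marker levels and of this mitochondrial difference in the results was not tested.

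**Figure D1:**
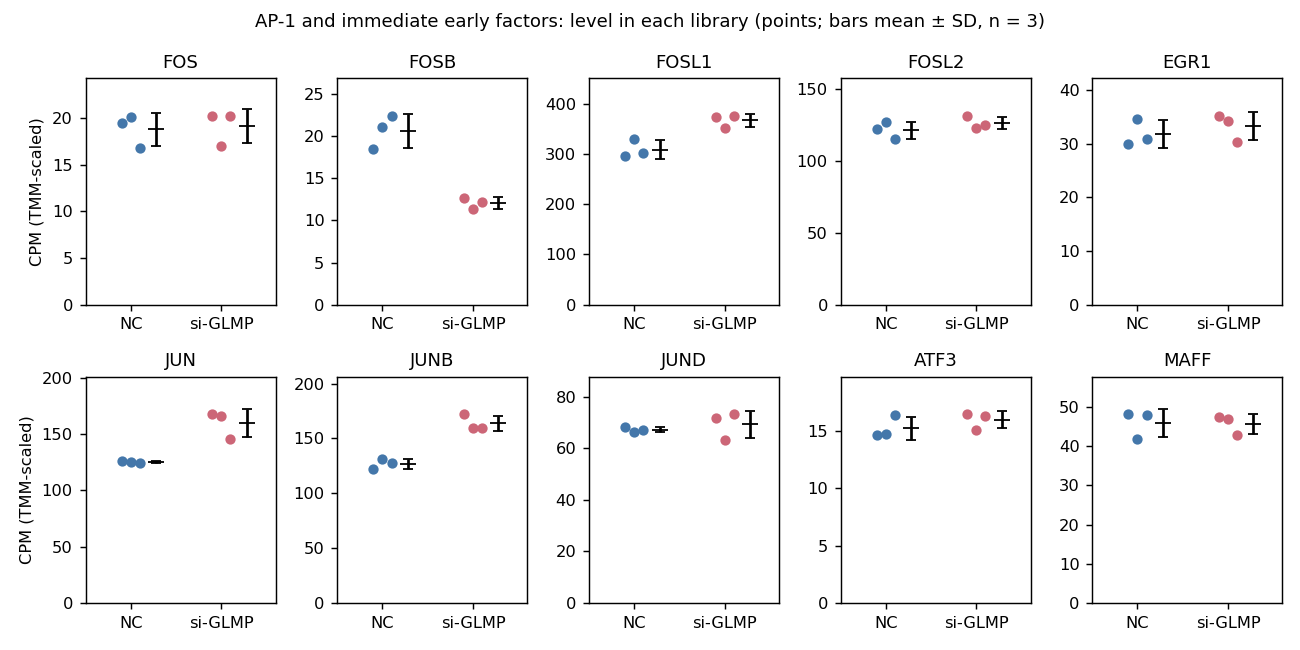
Level of each of the 10 factors in CPM scaled by TMM (linear axes from 0), with 1 point per library and bars for mean ± SD (n = 3). Points of NC and si-GLMP do not overlap for FOSB, FOSL1, JUN and JUNB, and overlap for the other 6.

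FOSB, the FOS family protein also known for its short splice form that accumulates on repeated stimulation, was the 1 factor that fell. The gene (ENSG00000125740) is annotated on GRCh38 chromosome 19, bases 45467995 to 45475179, plus strand. Its level was 18.5, 21.1 and 22.4 CPM in NC replicates 1 to 3 and 12.7, 11.4 and 12.2 CPM in si-GLMP replicates 1 to 3. All si-GLMP libraries thus lay below all NC libraries. The log2 fold change was -0.78 ± 0.11 (SE; 95% interval -1.0 to -0.56; edgeR adjusted p = 1.16e-07). Counts per gene do not separate the full-length from the short form.

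FOS, the partner gene after which the family is named, lies on chromosome 14 from 75278774 to 75282230 on the plus strand. Its level was 19.5, 20.1 and 16.7 CPM in NC and 20.2, 17.0 and 20.2 CPM in si-GLMP. The groups overlapped, with the lowest values in NC replicate 3 and si-GLMP replicate 2. For FOS the fitted log2 change was 0.03 ± 0.10 (SE; 95% interval -0.18 to 0.24; edgeR adjusted p = 0.890). This interval and that of FOSB do not overlap, though the difference between the 2 genes was not itself tested. Within a library, the ratio of FOSB counts to FOS counts was 0.948, 1.05 and 1.34 in NC and 0.627, 0.669 and 0.604 in si-GLMP, a measure that does not depend on library scaling.

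FOSL1, which encodes FRA-1, the FOS protein that ERK signalling stabilises in epithelial tumour cells, was the most abundant of the 10 factors per length. The gene lies on chromosome 11 from 65892049 to 65900573 on the minus strand. It had 295.6, 329.9 and 301.3 CPM in NC and 374.1, 352.9 and 375.8 CPM in si-GLMP. Each si-GLMP library was above each NC library, and the gap between NC replicate 2 and si-GLMP replicate 2 was the narrowest. For FOSL1 the fitted log2 change was 0.25 ± 0.06 (SE; 95% interval 0.12 to 0.38; edgeR adjusted p = 0.00229). After removal of a trend with GC and length from each library, an alternative chosen after the data were seen, it was 0.16 (edgeR adjusted p = 0.0356).

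FOSL2, which encodes FRA-2, lies on chromosome 2 from 28392448 to 28417312 on the plus strand. Its level was 122.5, 127.0 and 115.4 CPM in NC and 131.4, 123.3 and 125.5 CPM in si-GLMP, with overlapping groups. For FOSL2 the fitted log2 change was 0.06 ± 0.07 (SE; 95% interval -0.08 to 0.19; edgeR adjusted p = 0.588). The ratio of FOSL1 to FOSL2 counts was 2.41, 2.60 and 2.61 in NC and 2.85, 2.86 and 2.99 in si-GLMP. Each si-GLMP ratio thus lay above each NC ratio. The 95% intervals of the 2 FRA genes overlap, and the difference between their changes was not itself tested. Correcting each library for GC and length brought their log2 changes closer, to 0.16 for FOSL1 and 0.09 for FOSL2, from 0.25 and 0.06.

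JUN, the partner that can bind DNA both as a homodimer and with FOS proteins and that JNK activates by phosphorylation, lies on chromosome 1 from 58780788 to 58784327 on the minus strand. It had 126.4, 125.7 and 124.8 CPM in NC, a coefficient of variation of 0.617%. The median coefficient in NC was 5.52% over 10791 genes with a mean count of at least 100. With 3 libraries, so small a value is not read as a trait of JUN. In si-GLMP it had 167.6, 166.6 and 145.8 CPM, with replicate 3 lower than the other 2 and still above all NC libraries. For JUN the fitted log2 change was 0.35 ± 0.07 (SE; 95% interval 0.21 to 0.48; edgeR adjusted p = 6.96e-05).

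JUNB, a JUN protein with weaker transactivation that is often described as holding JUN in check, lies on chromosome 19 from 12791496 to 12793315 on the plus strand. Its level was 122.2, 131.1 and 127.4 CPM in NC and 171.9, 160.0 and 159.3 CPM in si-GLMP, again without overlap. For JUNB the fitted log2 change was 0.37 ± 0.07 (SE; 95% interval 0.23 to 0.50; edgeR adjusted p = 2.13e-05). HOOK2, on the opposite strand, shares 259 bases with the exons of JUNB, 14.2% of their length, and was itself not called (0.10 on the log2 scale, edgeR adjusted p = 0.354). The ratio of JUNB to JUN counts stayed between 0.960 and 1.09 over all 6 libraries, so the 2 genes kept nearly the same proportion in both groups.

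JUND, the JUN family member that is expressed in resting cells and responds little to growth factors, lies on chromosome 19 from 18279760 to 18281622 on the minus strand. It had 68.3, 66.2 and 67.3 CPM in NC and 71.6, 63.1 and 73.1 CPM in si-GLMP. The si-GLMP values lay on both sides of the NC values. For JUND the fitted log2 change was 0.04 ± 0.07 (SE; 95% interval -0.11 to 0.19; edgeR adjusted p = 0.738). Counts of JUN per count of JUND were 1.85, 1.90 and 1.86 in NC and 2.34, 2.64 and 1.99 in si-GLMP.

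EGR1 is a zinc finger factor and no AP-1 protein, and its promoter responds to ERK through SRF and its ETS partners at the CArG boxes shown above. The gene lies on chromosome 5 from 138465490 to 138469315 on the plus strand. Its level was 29.9, 34.7 and 30.8 CPM in NC and 35.1, 34.3 and 30.2 CPM in si-GLMP. The groups overlapped over nearly their whole range. For EGR1 the fitted log2 change was 0.06 ± 0.09 (SE; 95% interval -0.11 to 0.24; edgeR adjusted p = 0.665).

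ATF3, a stress-induced dimer partner that represses many promoters as a homodimer, lies on chromosome 1 from 212565334 to 212620777 on the plus strand. It had 14.6, 14.7 and 16.4 CPM in NC and 16.4, 15.1 and 16.3 CPM in si-GLMP, a fitted log2 change of 0.07 ± 0.11 (SE; 95% interval -0.15 to 0.28; edgeR adjusted p = 0.723). MAFF, a small MAF protein without a transactivation domain that pairs with NRF and BACH factors, lies on chromosome 22 from 38200767 to 38216511 on the plus strand. Its level was 48.1, 41.7 and 47.8 CPM in NC and 47.5, 47.0 and 42.8 CPM in si-GLMP. The log2 fold change of MAFF was -0.005 ± 0.08 (SE; 95% interval -0.17 to 0.16; edgeR adjusted p = 0.979). The groups overlapped for both ATF3 and MAFF. Over the 6 factors that were not called, the 95% intervals reached from -0.18 to 0.28 on the log2 scale.

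**Figure D2:**
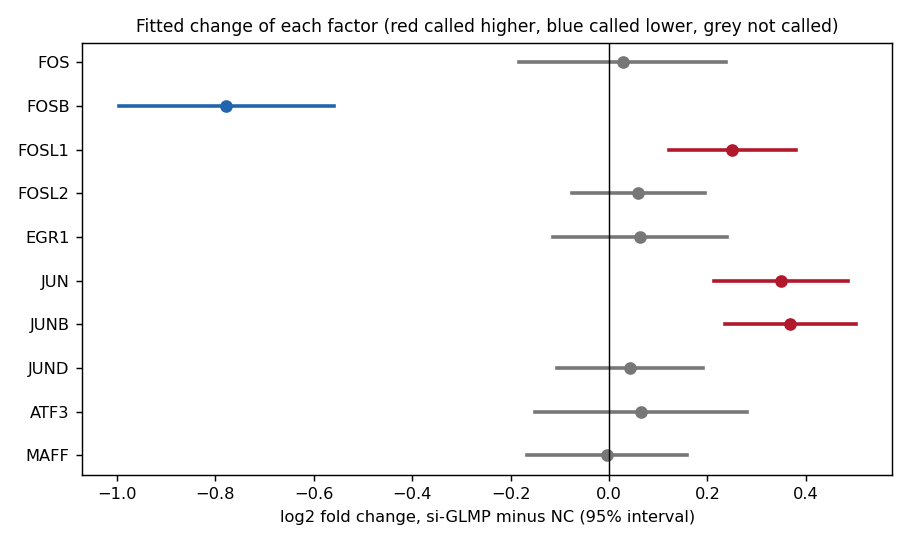
Fitted log2 fold change, si-GLMP minus NC, of each of the 10 factors with its 95% interval from the edgeR quasi-likelihood fit. The intervals of FOSL1, JUN and JUNB lie above 0 and that of FOSB below 0, and the other 6 cross 0.

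The calls on FOSB, FOSL1, JUN and JUNB stood under each of 15 alternative fits at the same threshold, which changed the scaling, the filter, the tool or the libraries used, and none of the other 6 factors was called under any of them. The largest adjusted p of these 4 genes was 0.0434, for FOSL1 without NC replicate 1. With the mitochondrially encoded genes taken out of the table, the log2 fold changes were -0.78 for FOSB, 0.24 for FOSL1, 0.34 for JUN and 0.36 for JUNB. Without NC replicate 2, the library with the highest mitochondrial share, they were -0.76 for FOSB, 0.30 for FOSL1, 0.35 for JUN and 0.39 for JUNB.

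Levels of different genes were compared per length, as CPM per kilobase of annotated exon. This understates a gene whose annotated exons are longer than its main transcript. In NC the order was FOSL1 (163.7 ± 9.74), JUNB (69.7 ± 2.46), JUND (36.1 ± 0.572), JUN (35.5 ± 0.219), FOSL2 (17.0 ± 0.817), EGR1 (10.1 ± 0.815), MAFF (8.17 ± 0.641), FOS (5.80 ± 0.555), ATF3 (3.77 ± 0.247) and FOSB (3.72 ± 0.361), each as CPM per kilobase (SD, n = 3). Of the neighbours in this order, JUND and JUN overlapped over the libraries, and so did ATF3 and FOSB. In si-GLMP, JUN (45.2 ± 3.47) stood above JUND (37.2 ± 2.88) and ATF3 (3.95 ± 0.184) above FOSB (2.17 ± 0.118), with no overlap, and the order was otherwise as in NC.

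FOSL1 made up most of the FOS family transcripts in both groups. Its share of the summed FOS, FOSB, FOSL1 and FOSL2 level per kilobase was 85.6%, 86.3% and 86.3% in NC and 88.1%, 88.4% and 88.5% in si-GLMP. FOSB held 1.82% to 2.18% in NC and 0.967% to 1.01% in si-GLMP, so its fall took a small part of the total. The summed level of the 4 genes was 183.1, 202.6 and 185.0 CPM per kilobase in NC and 225.1, 211.5 and 225.1 in si-GLMP. JUNB led the JUN family, with 48.1% to 50.4% in NC and 52.1% to 52.4% in si-GLMP. The summed JUN, JUNB and JUND level was 139.5, 143.0 and 141.4 CPM per kilobase in NC and 180.2, 168.9 and 167.9 in si-GLMP. Shares within a family sum to a fixed total, so they are given as a description with no test.

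**Figure D3:**
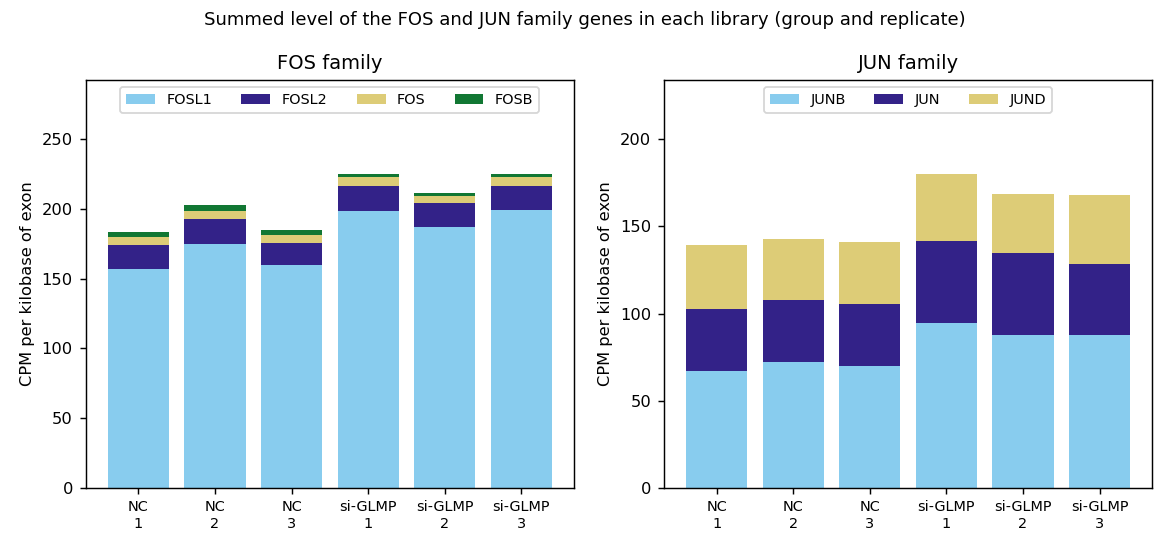
Summed CPM per kilobase of exon of the FOS family (left) and JUN family (right) in each library, stacked by gene. FOSL1 fills most of each FOS family bar, and the 3 si-GLMP bars of both families stand above the 3 NC bars.

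Other genes of the same circuit were described from lists chosen with earlier results of these data known, by counts and medians beside the background shares given above. Among 17 tested bZIP proteins that dimerise with FOS, JUN or small MAF proteins, 5 were higher and 1 lower, with a median log2 fold change of 0.11. The lower one was JDP2, a JUN dimerisation protein that represses AP-1 sites. It went from 22.9, 23.0 and 22.1 CPM in NC to 12.8, 9.90 and 11.2 CPM in si-GLMP, with no overlap (-1.01 ± 0.11 on the log2 scale, SE; edgeR adjusted p = 1.25e-10). The small MAF genes MAFG and MAFK, relatives of MAFF, rose by 0.37 and 0.48 on the log2 scale (edgeR adjusted p = 5.23e-05 and 0.000106). MAFK shares 809 exonic bases, 18.1% of its exonic length, with TMEM184A on the opposite strand, which rose by 0.45. NFE2L1, a CNC factor that pairs with small MAFs, rose by 0.29, ATF4, the effector of the integrated stress response, by 0.28, and its target DDIT3 by 0.65, from 3.89 ± 0.421 to 6.12 ± 0.335 CPM. DDIT3 shares 27.2% of its exonic bases with the methionyl-tRNA synthetase gene on the opposite strand. NFE2L2, BACH1, ATF2, ATF7 and BATF were not called.

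Among 34 other immediate early genes, 9 were higher, 5 lower and 20 not called, with a median log2 fold change of 0.06. Without si-GLMP replicate 2, 8 were higher and 3 lower. Of the lower ones, NR4A1 lost its call in 6 of 15 alternatives and IER5L in 3, both named after their values were seen. The higher ones included ZFP36, which encodes the protein that speeds decay of AU-rich mRNAs, from 40.2 ± 2.11 to 61.0 ± 3.16 CPM (log2 fold change 0.60 ± 0.08, SE; edgeR adjusted p = 1.97e-08). PPP1R15A, the stress-induced phosphatase subunit GADD34, rose by 0.52, BHLHE40, a transcriptional repressor, by 0.56, and IER5 by 0.39. CCN1 and CCN2, secreted matricellular proteins that SRF and YAP also control, had -1.10 ± 0.07 and -1.44 ± 0.19 (SE; edgeR adjusted p = 1.36e-18 and 4.73e-08). The other EGR genes were not called, with EGR3 at 7.50 ± 0.350 and 7.91 ± 0.708 CPM, and EGR2 and EGR4 below 3 CPM in each library. EGR2 stood at 0.60 on the log2 scale (edgeR adjusted p = 0.0791), and passed without NC replicate 2 (0.81, adjusted p = 0.0348). DUSP1, the phosphatase induced together with FOS, was not called either (log2 fold change 0.15, edgeR adjusted p = 0.348).

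Of 23 tested kinases and factors upstream, 1 was higher, 2 were lower and 20 were not called, with a median log2 fold change of 0.03. SRF, the factor of the CArG box, went from 69.9 ± 1.63 to 55.9 ± 5.44 CPM (-0.32 ± 0.08 on the log2 scale, SE; edgeR adjusted p = 0.00105). MAPK8, which encodes the kinase JNK1, had -0.25 ± 0.08 (edgeR adjusted p = 0.0151), and RPS6KA3, an ERK-activated kinase, 0.22 ± 0.07 (edgeR adjusted p = 0.0156). The MAPK8 call was lost without NC replicate 3 (adjusted p = 0.105), si-GLMP replicate 1 (0.127) or si-GLMP replicate 3 (0.121), and that of RPS6KA3 without NC replicate 1 (0.0824) or si-GLMP replicate 2 (0.0871). The ERK gene MAPK3 and its activators MAP2K1 and MAP2K2 were not called. With the GC and length trend removed, 4 of the 23 were higher and 4 lower.

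Among 11 genes listed as restraints on AP-1 or EGR1, 3 were higher, 1 lower and 7 not called, with a median of -0.01. They encode ubiquitin ligases of JUN, EGR corepressors and mRNA-binding factors. Most of the latter speed mRNA decay, but ELAVL1, which was not called, stabilises mRNAs and is no restraint in that sense. Besides ZFP36, its relative ZFP36L1 rose by 0.28 (edgeR adjusted p = 0.000849) and ZFP36L2 had -0.29 (edgeR adjusted p = 0.000805). ZFP36 and ZFP36L1 were also counted among the higher immediate early genes above. FBXW7, a ligase subunit that targets phosphorylated JUN, passed with 0.26 (edgeR adjusted p = 0.0350) but not in 6 of 15 alternatives, among them DESeq2 (adjusted p = 0.0712). The fits that lost it for want of a library were those lacking NC replicate 1 (0.0827), replicate 2 of NC (0.172) or of si-GLMP (0.106), or si-GLMP replicate 3 (0.142). The EGR corepressor genes NAB1 and NAB2 were not called (-0.07 and -0.04). NAB1 and NAB2 are EGR1 targets too. Of 9 such targets tested, 2 were higher, among them PTGES (0.37), and 1 lower, FN1 (-0.53, edgeR adjusted p = 0.0166). The FN1 call was lost with the replicate number as a block (0.0983), after GC and length correction (0.158) and without si-GLMP replicate 1 (0.0628).

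Of 19 tested genes known as AP-1 targets, 12 were higher, 3 lower and 4 not called, with a median log2 fold change of 0.63. The lower count was 1 without NC replicate 1 and 0 without si-GLMP replicate 3. HBEGF, an EGFR ligand, had 42.8, 40.2 and 44.1 CPM in NC and 86.6, 98.2 and 89.8 CPM in si-GLMP, with no overlap (log2 fold change 1.11 ± 0.08, SE; edgeR adjusted p = 1.99e-17). The cornified envelope precursor SPRR1B rose by 1.74, the chemokine CXCL8 by 1.42, the urokinase receptor PLAUR by 0.72, urokinase itself, PLAU, by 0.63, and the angiogenic factor VEGFA by 0.70. The collagenase MMP1, chosen after its values were seen, rose by 0.97 (edgeR adjusted p = 3.06e-08). PLAU shares 31.1% of its exonic bases with a gene on the opposite strand. The lower targets included CCND1 (-0.18) and CD44 (-0.26), named after their values were seen, and without si-GLMP replicate 3 neither passed (adjusted p = 0.0957 and 0.0558). CCND1 was also lost without NC replicate 1 (0.0964), 2 (0.0784) or 3 (0.0688) and with no filter (0.0694).

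**Figure D4:**
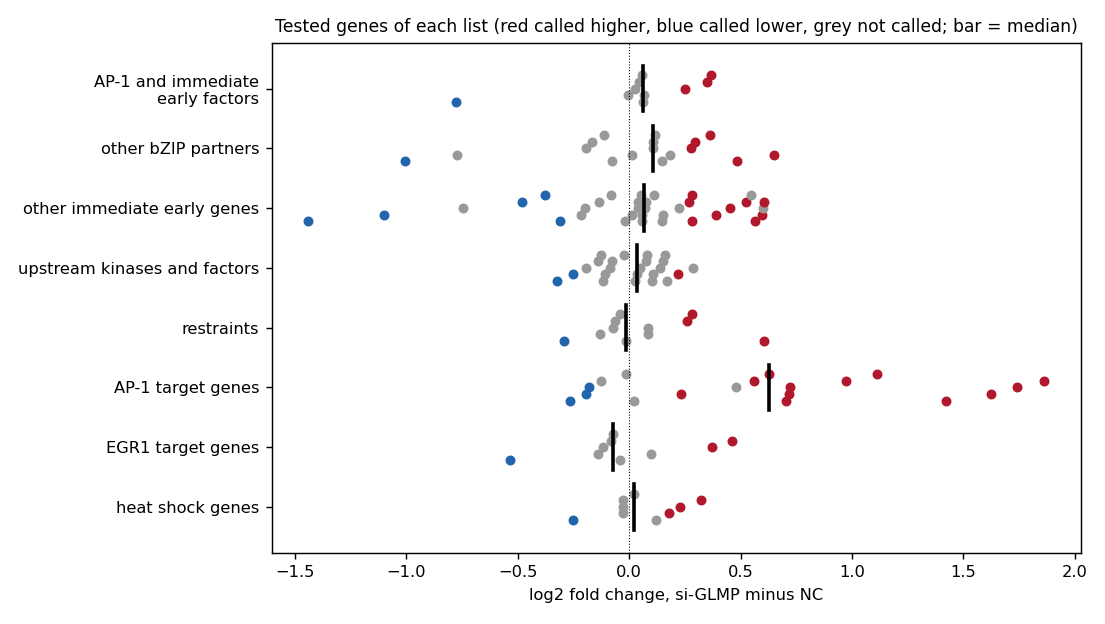
Log2 fold change, si-GLMP minus NC, of each tested gene of the 10 factors and 7 related lists, coloured by call, with the list's median as a black bar. The medians lie between -0.07 and 0.11 except for AP-1 target genes, at 0.63.

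The promoter motifs were also counted over all tested genes with a RefSeq window. Of 10956 such genes, 13.2% were called higher and 12.5% lower. A TGANTCA match (TRE, any base at N) within 250 bases upstream of a start was held by 718 genes. Of these, 19.9% were higher and 13.9% lower, with a median log2 fold change of 0.03. Among 215 genes with the variant site of the JUN promoter, 11.6% were higher and 17.2% lower, with a median of -0.02. Among 909 genes with TATAAA, 17.3% were higher and 14.0% lower, and among 1359 with a short CRE, 14.3% were higher and 11.8% lower. Among 159 genes with a CArG box, 13.8% were higher and 19.5% lower, with a median of -0.04. Among 365 genes with a full CRE, 14.5% were higher and 9.32% lower. A motif match is a description of letters and not of binding, and no test was made of these shares or of their differences between motifs.

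Of 9 heat shock genes, which like FOS and ATF3 respond to cell stress, 3 were higher and 1 was lower, with a median log2 fold change of 0.02. Without NC replicate 1, 1 was higher and 1 lower. HSPA1B rose by 0.32 and DNAJB1 by 0.23, whereas HSP90AA1 had -0.25. HSPA1A and HSPA1B are near-identical copies, so their single values are uncertain. HSPB1 (0.18, edgeR adjusted p = 0.0341) lost its call in 6 of 15 alternatives, with adjusted p up to 0.312. They included the fits that lacked replicate 1 or 3 of NC (0.161 and 0.204) or of si-GLMP (0.132 and 0.0699). DNAJB1 lost its call without NC replicate 1 (0.0553). Their part in the changes of the AP-1 genes was not tested.

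Likeness over the 6 libraries was described for each factor by the Pearson correlation of log2 CPM (prior count 2) with all genes of at least 100 mean counts. TNFAIP3, an inhibitor of NF-kB signalling, was among the 3 most like JUN (r = 0.995) and itself rose by 0.41 on the log2 scale. PRSS23, a serine protease gene, was among the 3 most like FOSB (r = 0.996) and had -0.59. The others, SDCCAG8 (r = 0.997) and CIART (r = 0.994), were not called (-0.14 and -0.34). Of those most like FOSL1, PIGS and EIF4G1 were not called (0.17 and 0.14), and ZNF385A rose by 0.43. P2RY6, a nucleotide receptor gene, and TOLLIP, an adaptor of Toll-like receptor signalling, were among those most like JUNB (r = 0.997 each) and rose by 0.64 and 0.27. With 6 points in 2 groups and all those genes searched, coefficients of this size are read as a description only. FOS was most like CREB3 (r = 0.992), which was not called.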

How the data were processed

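RNA of 3 NC and 3 si-GLMP libraries of PC9OR cells was sequenced after an Illumina mRNA preparation, per the labels' protocols. The authors deposited whole-number read counts per gene with no normalization. The submitters' processing notes list HISAT2 and GRCh38. The counting tool, annotation release and strandedness of counting were not given in the sources used here. Groups and replicate numbers came from sample titles, and 0 count columns were left over.

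The tests were run in edgeR 4.0.16 under R 4.3.3. Of 60664 genes, 15900 passed filterByExpr (minimum count 10), all 10 factors among them. TMM scaling, robust dispersions and the quasi-likelihood F test with group as the only term were used, and p-values were adjusted by Benjamini-Hochberg over all tested genes. Standard errors were derived from the log2 fold change and its F statistic, and 95% intervals use the fit's degrees of freedom. CPM values are TMM-scaled. Gene positions and exon lengths came from GENCODE release 29, promoter sequences from RefSeq (GRCh38.p14). Named genes were the 10 factors, GLMP, up to 6 called members of each list by smallest adjusted p, and the 3 genes most like each factor, of which the text gives some. Genes named as not called were picked for their known role, after their values were seen. Values of some list genes are not reported here. The factors, lists and rules were chosen with earlier results of these data known.

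Alternatives comprised upper-quartile and RLE scaling, no filter, a filter of 1 CPM in 3 libraries, DESeq2 1.42.0, limma-voom (limma 3.58.1), the replicate number as a block, each library left out in turn, and an absolute log2 fold change over 1. Removal of mitochondrial genes and of a GC and length trend were added after the data were seen. On simulated counts for 17782 genes drawn from the NC means of this comparison, 30 of 50 genes changed 1.3-fold were recovered. The recovery was 41 of 50 at 1.5-fold, 49 of 50 at 2-fold and 50 of 50 at 3-fold, with 11 unchanged genes called. The simulation gave all genes the same dispersion and changed a far smaller share of genes than was called in the data. These rates are therefore not the sensitivity in these data.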

Additional observations from a re-analysis of the deposited data

How the results depend on the processing

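With an absolute log2 fold change over 1 also required, 0 of the 10 factors and 304 genes in all were called, against 4 and 3712. The count of called factors was 4 in each of the other 15 alternatives, and no call on a factor reversed its direction. Heat shock genes called went from 4 to 2 without NC replicate 1, and upstream kinases and factors from 3 to 8 with the GC and length trend removed. Deviations of same-numbered libraries had correlations of 0.0388, 0.0263 and 0.00128 over genes. Differently numbered libraries of the 2 groups had -0.038 to 0.00963. All were small, and the numbers were not taken as pairing the samples. A replicate block gave 3972 called genes and 4 called factors, and among the named genes only FN1 lost its call. Depth limits genes with few reads, such as EGR2, whose 95% interval ran from 0.09 to 1.11 on the log2 scale. Each group holds 3 libraries, and intervals cover the spread between these only.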
